A study of Mus musculus with 3 samples.

Results

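The genes described here encode splicing factors and RNA-binding proteins: SR proteins, hnRNP proteins, snRNP proteins, core spliceosome factors, Rbm proteins, tissue-restricted regulators of splicing and mRNA stability, and factors that make or bind poly(A) tails. Members were the probe sets whose platform annotation gave a single symbol starting with Srsf, Sfrs, Hnrnp, Snrp, Sf3, U2af, Prpf, Celf, Elavl, Ptbp, Nova, Khdrbs, Pabp or Cpsf, or with Rbm or Msi and a digit. This gave 109 probe sets of 83 genes, out of 12422 gene probe sets and 8251 named genes. The rule uses symbols and no signal. Of the 83 genes, 82 are protein-coding in RefSeq and 1, Snrp1c-ps2, is a pseudogene.

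Expression was measured in neural retina of Rp1 knockout (Rp1-/-) mice at postnatal day 10, on a 1-colour Affymetrix U74Av2 oligonucleotide array. The mice were of a mixed background of 129/SvEv and C57BL/6. There were 3 arrays in 1 group, each made from a pool of retinas of 3 to 4 mice that were collected from 1 to 2 pm, and the arrays are numbered here in accession order. No array of another genotype was analysed here, so the comparisons are between pools. The labels do not say whether pools came from separate litters or shared animals, and all p-values measure only the spread between these 3 RNA samples. Of the array titles, that of pool 1 has no rp1 tag and the others do, while all descriptions name the same genotype.

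Rp1 encodes a protein that binds microtubules in the outer segment of photoreceptors. Splicing removes introns through the spliceosome, which is built from small nuclear RNAs with their proteins (snRNPs) and further core factors. SR proteins mostly promote the use of exons and hnRNP proteins often oppose it, so that the balance of both sets which exons are kept. Photoreceptors are sensitive to this machinery: mutations in the ubiquitously expressed core factors PRPF8, PRPF31 and PRPF6 cause dominant retinitis pigmentosa in humans, a disease that mutations in RP1 also cause.

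Signals are the deposited intensities, in scaled units. The arrays had equal trimmed means (500.25 to 500.26), and median signals of 233.3 to 233.8. Control probe sets for bacterial and yeast genes (19) gave each array its floor, at 100.5, 124.8 and 120.4 in pools 1, 2 and 3, and a probe set whose mean signal exceeded the mean floor is called measured. The 3' to 5' signal ratio, which rises as RNA degrades, was 1.10, 1.40 and 1.63 by the actin control and 0.82, 0.90 and 0.75 for the Gapdh control. Rod markers identified the tissue, with 9 of 9 above the floor on all arrays and summed signals of 82183.9, 95245.1 and 85164.4 in pools 1, 2 and 3. Of these, 8 were highest in pool 2, and Prph2, a disc rim protein, was highest in pool 1 at 9356.3, against 1469.1 and 1332.3 (limma, adjusted p = 0.0011). Lens markers differed most among the marker lists: all 8 were above the floor and their sums were 65212, 16552.4 and 147614.8, lowest in pool 2. Summed pigment epithelium markers (5 genes, 3 above the floor on all arrays) were 1110.2, 1164.3 and 2089.9, and summed blood markers (3 genes, all above it) were 20541, 12671.7 and 10545.7. Xist, which is the RNA of the inactive X chromosome, read 69.5 (under the floor), 1384.4 and 1543.7 in pools 1, 2 and 3. The sample labels used here give no sex. The part of these cells, or of the sex of the mice, in the differences below was not tested. In whole retina, fewer cells of a type and less RNA per cell cannot be told apart. No probe set carried the symbol Rp1, so the knockout was not checked.

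Most members were detected, and they were detected more often than the array as a whole. Of the 109 probe sets, 96 (88.1%) were above the floor on all 3 arrays, against 57.9% of all 12422. In single pools the member counts were 101, 100 and 98. A measured probe set was found for 82 of 83 genes, from 99 of 109 probe sets (90.8%, against 67.0% of all). The exception was Rbm22, a factor of the active spliceosome, whose 1 probe set (class r) was under the floor everywhere at 72.4, 76.5 and 65.4. Another 5 probe sets were under the floor in every pool, those of Srsf1, Hnrnpdl, Snrpb, Prpf39 and Pabpc4, and each of these genes had a measured probe set as well. The remaining 4 unmeasured sets, of Srsf1, Hnrnpab, Rbm14 and Celf1, were above the floor in at least 1 pool. Probe sets with a class letter (f, r, i, s or g), which may cross-react with related transcripts or met looser design rules, made up 22 of the 109. Of these, 16 were above the floor on all arrays, against 80 of the 87 plain sets.

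The promoters of 69 of the 83 genes were matched in RefSeq (build GRCm38.p6), and the 250 bases before the annotated start were searched on both strands for 5 motifs. They were the TATA box (TATAAA), the CCAAT box (CCAAT), the GC box (GGGCGG), an ETS motif (CCGGAAGT) and the cyclic AMP response element (TGACGTCA), none of which contains another. Member promoters were rich in CpG, with a median of 19 CpG dinucleotides and 60.4% G and C, against 6 and 52.0% over all 27025 promoters. The GC box was in 56.5% of member promoters and 32.9% of all, and the CCAAT box was in 46.4% and 34.5%. The ETS motif was in 10.1% of member promoters (7 of 69) and 2.93% of all. The TATA box was in 11.6% (8 of 69) and 13%, and the cyclic AMP element in 1.45% (1 of 69) and 1.62%. The promoters of the 4999 genes with a measured probe set had a median of 16 CpG and 60.0% G and C, with GC boxes in 59.7%, CCAAT boxes in 36.0%, ETS motifs in 6.12%, TATA boxes in 7.76% and cyclic AMP elements in 2.72%. Members were thus nearer to measured genes than to all promoters in G and C, CpG, GC box and ETS motif, and further from them in TATA box and cyclic AMP element, while the CCAAT box was about as far from both. These are counts of letters, given as a description with no test, and for the ETS motif, TATA box and cyclic AMP element they rest on few member promoters. The lines that follow show, 5' to 3' on the gene's strand, the 250 bases before the start of the members with the widest range of signal that had a matched promoter (Srsf3, Cpsf3 and Hnrnpm) and of the steadiest member (Hnrnph3), with motif letters in capitals.
Srsf3: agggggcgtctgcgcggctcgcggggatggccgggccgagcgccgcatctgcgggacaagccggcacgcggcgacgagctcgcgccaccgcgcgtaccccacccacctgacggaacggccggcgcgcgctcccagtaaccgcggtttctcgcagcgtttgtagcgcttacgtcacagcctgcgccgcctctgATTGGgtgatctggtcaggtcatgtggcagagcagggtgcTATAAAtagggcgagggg
Cpsf3: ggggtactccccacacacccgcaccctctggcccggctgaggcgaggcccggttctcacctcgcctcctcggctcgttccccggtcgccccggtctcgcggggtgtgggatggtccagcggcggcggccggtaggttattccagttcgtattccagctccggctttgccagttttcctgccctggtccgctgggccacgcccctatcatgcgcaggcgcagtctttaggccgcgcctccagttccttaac
Hnrnpm: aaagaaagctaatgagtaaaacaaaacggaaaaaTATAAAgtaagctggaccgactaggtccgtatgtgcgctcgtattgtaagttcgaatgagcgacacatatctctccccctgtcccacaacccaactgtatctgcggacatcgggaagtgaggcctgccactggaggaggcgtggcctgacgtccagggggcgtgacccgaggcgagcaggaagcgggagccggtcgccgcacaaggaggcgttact
Hnrnph3: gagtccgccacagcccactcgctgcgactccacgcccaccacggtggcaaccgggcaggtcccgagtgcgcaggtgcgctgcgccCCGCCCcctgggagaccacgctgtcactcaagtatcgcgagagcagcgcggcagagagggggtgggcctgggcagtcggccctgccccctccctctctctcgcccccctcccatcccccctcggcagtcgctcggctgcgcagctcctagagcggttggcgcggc
These lie at chr17:29032410-29032659 on the plus strand (Srsf3), chr12:21286047-21286296 on the plus strand (Cpsf3), chr17:33685459-33685708 on the minus strand (Hnrnpm) and chr10:63023850-63024099 on the minus strand (Hnrnph3). The Srsf3 promoter has a TATA box at -18 and a CCAAT box, read on the other strand, at -58, counting the last base shown as -1. Hnrnpm has TATAAA far upstream at -216, Hnrnph3 has a GC box on the other strand at -165, and the Cpsf3 window held none of the 5 motifs. They held 35, 24, 19 and 25 CpG for Srsf3, Cpsf3, Hnrnpm and Hnrnph3.

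**Figure D1:**
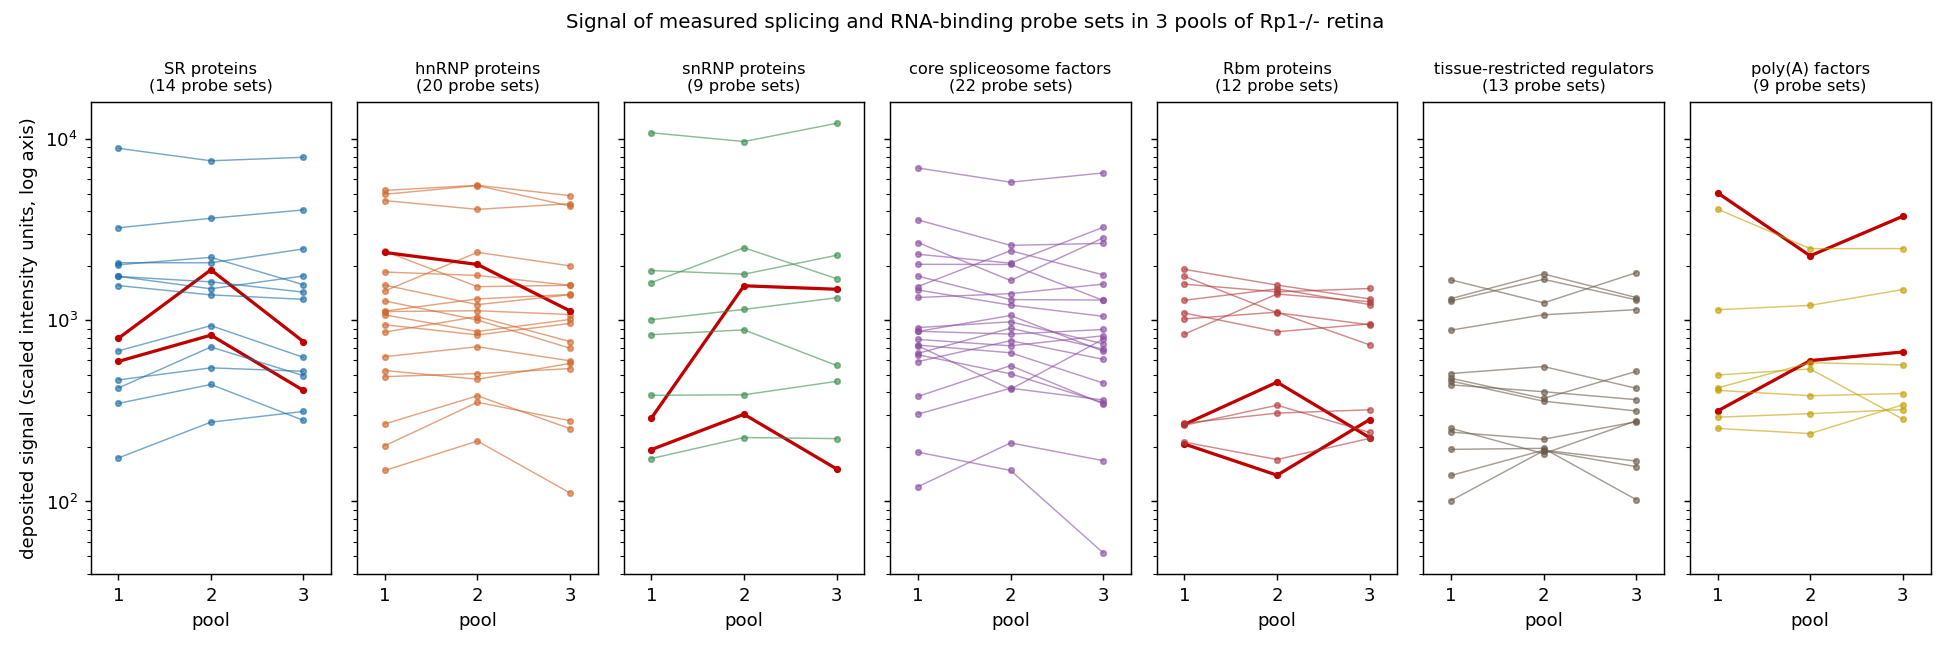
Deposited signal (log axis, scaled intensity units) of the 99 measured member probe sets in pools 1, 2 and 3, in 7 panels by role. Each line joins the values of 1 probe set and implies no order of the pools. The 9 probe sets whose range over the pools passed 2-fold are drawn in dark red. Most lines run nearly level, and heights of different probe sets are not comparable as amounts of transcript.

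Between pools the members varied about as much as other probe sets. The median SD of log2 signal over the 3 pools was 0.255 for the 99 measured members and 0.268 for all 8327 measured probe sets. Spread falls with signal and members tend to be bright, so 4 equal bins of signal were compared as well. In the brightest bin, which held 47 members, the medians were 0.201 for members and 0.207 for all. In the next bins down they were 0.251 against 0.236 (24 members), 0.280 against 0.301 (18 members) and 0.403 against 0.372 (10 members). The range over the pools passed 2-fold for 9 members (9.09%, against 13.2% of all measured) and the highest pool was less than 25% above the lowest for 27 (27.3%, against 25.2%). The test for variable probe sets, which asks whether the variance between pools exceeds that of probe sets of like signal, called 1 of 99 members (limma, adjusted p under 0.05), against 0.216% of all. An unadjusted p under 0.05 was found for 5 members (5.05%, against 5.34%).

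Pool 2 held the highest signal for more members than either other pool, by small differences. Of the 99, 42 were highest in pool 2 (42.4%, against 33.8% of all), 30 in pool 3 (against 32.2%) and 27 in pool 1 (against 34%). Pool 3 held the lowest signal for 39 (39.4%, against 31.8%), pool 1 for 30 (against 36.2%) and pool 2 for 30 (against 32.1%). The median log2 difference over members was 0.14 for pool 2 minus pool 3, with 57 of 99 higher in pool 2, beside 0.01 over all measured probe sets. It fell to 0.08 with a floor at the median control, to 0.08 over the probe sets above the floor on all arrays and to 0.06 with no filter on low signal. It was 0.11 with 1 probe set per gene and 0.13 both with changed scaling and with log2(signal + 50). Without probe sets of the f, r, i, s and g classes it rose to 0.16. Taking pool 2 from pool 1 gave -0.06 (all: -0.01), and taking pool 3 from pool 1 gave 0.06 (all: -0.01), which turned to -0.02 when all 109 probe sets were included. Rod markers had median log2 differences of 0.16 (pool 2 less pool 3), -0.37 (pool 1 less pool 2) and -0.22 (pool 1 less pool 3), and lens markers had -3.02, 1.86 and -1.10 for these pairs. Their part in the members' differences was not tested. Past 2-fold, 1 member was higher in pool 1 than in pool 2 (against 2.73% of all) and 2 the other way (against 3.52%). Between pools 1 and 3 the counts were 1 higher in pool 1 (against 3.11%) and 2 higher in pool 3 (against 3.81%). Between pools 2 and 3 they were 4 higher in pool 2 (against 2.73%) and 1 higher in pool 3 (against 2.38%).

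**Figure D2:**
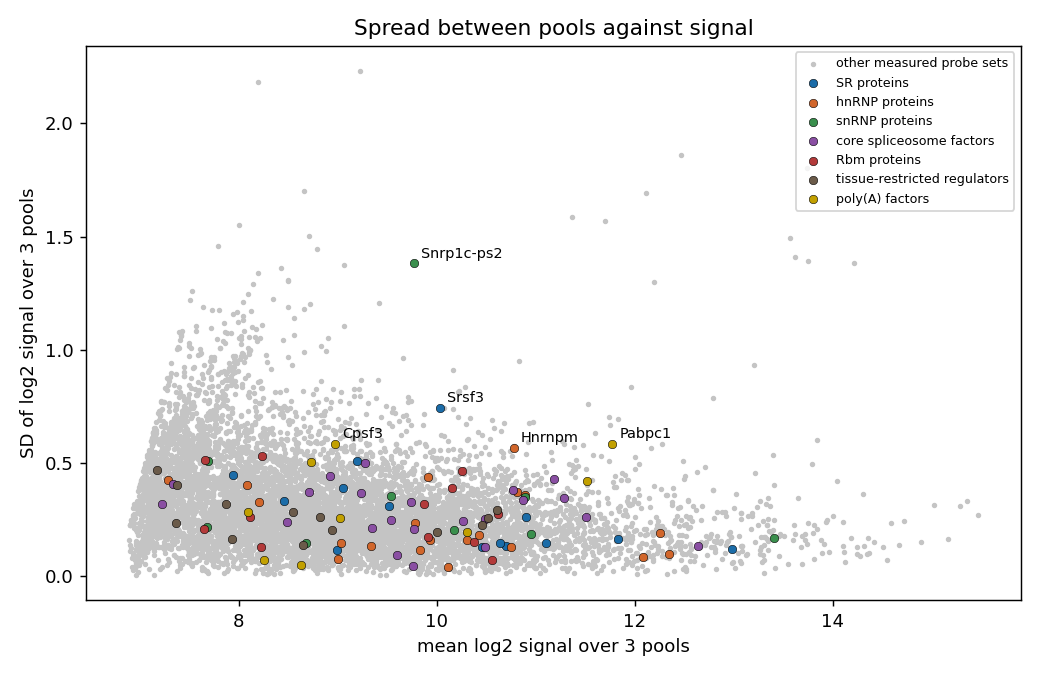
SD of log2 signal over the 3 pools (vertical axis) against mean log2 signal (horizontal axis) for all 8327 measured probe sets, with members coloured by role and the others in grey. Members lie within the cloud of other probe sets, with Snrp1c-ps2 (SD 1.38) above all other members and Srsf3 (SD 0.74) next.

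Among SR proteins, arginine- and serine-rich activators of splicing, 14 of 16 probe sets (9 genes) were measured. Of these, 2 passed 2-fold (14.3%, against 13.2% of all measured) and none passed the variability test (limma, against 0.216% of all). Their median SD was 0.212, and 7 of the 14 were highest in pool 2. Srsf2, which binds exonic enhancers, read 8893.7, 7589.4 and 7935.7, in the order pool 1, pool 2, pool 3 that is kept throughout. A second set for Srsf2 read 1746.7, 1492.3 and 1756.1, so both sets were lowest in pool 2 and both stayed within 1.18-fold. Both are of the s class, which can bind more than 1 transcript. Srsf5 had 3239, 3655.2 and 4063.7, Srsf11 had 2079.2, 2075.9 and 2476.8, and Srsf9 had 1744.7, 1629 and 1428.8. The pools thus took a different order for each of these, with the highest about 25% or less above the lowest. Srsf6 read 2025.6, 2223.9 and 1570.1, a range of 1.42-fold. Srsf4, which belongs to the larger SR proteins, had 1553.9, 1380.5 and 1305 from one set and 468.7, 546.3 and 522.7 from an f-class set. The latter was the steadiest SR probe set, with an SD of 0.11 on the log2 scale.

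Srsf3, the smallest SR protein, which also takes part in mRNA export, gave the widest SR range. Its f-class probe set read 794.8, 1898.3 and 761.6, so pool 2 stood apart while pools 1 and 3 lay close together. The highest was 2.49-fold over the lowest, short of a call (limma, adjusted p = 0.56; unadjusted p = 0.0049). The plain Srsf3 set read 173.8, 274 and 313.9, with pool 3 highest, so the sets share only that pool 2 exceeded pool 1. Srsf1, the founding SR protein, had 592.7, 827.6 and 409.9 from one set, a range of 2.02-fold (limma, adjusted p = 0.99). A brighter Srsf1 set had 677.8, 934.1 and 624, in the same order of pools. Srsf10, a splicing repressor when dephosphorylated, was likewise highest in pool 2 by both sets, at 422.8, 712 and 494.8 and at 347.8, 442.2 and 280.1. Neither gene had a set that passed the test.

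The hnRNP proteins, abundant nuclear proteins that coat nascent transcripts, were the steadiest role group by median SD. Of 22 probe sets (16 genes) 20 were measured, with a median SD of 0.168. The highest pool was less than 25% above the lowest for 10 of 20 (50%), against 25.2% of all measured probe sets. This comparison was not matched for signal, and spread falls with signal. In the brightest of the 4 signal bins the median SD over all probe sets was 0.207. Hnrnpa2b1, which binds RNA for splicing and transport, had 5209.6, 5554.6 and 4875.1, and a dimmer set 527.9, 472.5 and 577.9. Hnrnph1, a binder of G-rich elements, had 4957.8, 5537.9 and 4269.9. Its relative Hnrnph3 was the steadiest of all members, at 1117.1, 1128.6 and 1075.9, a range of 1.05-fold. Hnrnpa1, a repressor of exon inclusion, was the next steadiest hnRNP set at 488.6, 508 and 541.2. Hnrnpul2, an Hnrnpu-like protein, had 944, 830.4 and 960.5 by one set and 630.2, 714.1 and 597.5 by another, highest in different pools. Hnrnpdl had 4576.2, 4093.9 and 4399.4 by an s-class set and 1123.6, 1311.8 and 1388.4 by a plain one.

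The wider hnRNP ranges went in different directions. Hnrnpm, which regulates alternative exons, had 2367.2, 2032.5 and 1126.6, with pool 3 lowest, 2.10-fold under pool 1 (limma, adjusted p = 0.81; unadjusted p = 0.022). Hnrnpll, a relative of Hnrnpl, took the same order at 1277.5, 1002.8 and 701.6, within 1.82-fold, and Hnrnpl itself read 1845.6, 1767.4 and 1559.8. Hnrnpd, a regulator of AU-rich mRNA decay, was highest in pool 1 at 2406.7, with 1532.6 and 1559.4 in the others. Hnrnpk, a poly(C) binder, was lowest in pool 1 at 1451.8, with 2370.9 and 1995.6 in the others. Hnrnpc, which binds uridine tracts, was also lowest in pool 1, at 203, against 352.6 and 279. Hnrnpu, a nuclear scaffold protein, had 1562.5, 1219.9 and 1382.4 from its brighter set, while the dimmer set was highest in pool 2 at 148.3, 215.4 and 111.4, the last under the floor. None of these passed the test.

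The snRNP proteins bind the small nuclear RNAs, and their one call was the pseudogene. Of 10 probe sets (8 genes) 9 were measured, and 5 were highest in pool 2, 4 in pool 3 and none in pool 1 (all measured probe sets: 34% in pool 1). Snrpb, which belongs to the Sm ring, had 10834.3, 9693.8 and 12218.8. Snrpg had 1881.6, 1795.8 and 2282.7 and Snrpe 1615.8, 2513.1 and 1697.3, both Sm ring proteins, and a further ring protein, Snrpd3, had 832.7, 885.2 and 563.1. Snrpa1, of the U2 particle, was the steadiest at 385.4, 387.9 and 460.1. Snrpb2, also of U2, had 193.3, 302.9 and 151.2 by an r-class set, just past 2-fold (limma, adjusted p = 0.99), and 172.6, 225.3 and 222.2 by an f-class set. Pool 2 was highest by both.

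Snrp1c-ps2 was the 1 member that varied more than probe sets of like signal. Its probe set read 288.5 in pool 1, 1549.9 in pool 2 and 1483.2 in pool 3, so pool 1 stood far below the others, which nearly coincided. The range was 5.37-fold, and on the log2 scale pool 1 differed by -2.43 from pool 2 and by -2.36 from pool 3 (limma, adjusted p = 0.013). The protein-coding gene Snrpc, of the U1 particle, was far more even at 1007.3, 1148.1 and 1331.2, though it was lowest in pool 1 as well. The Snrp1c-ps2 set is of the f class and can bind related transcripts, so which transcripts it reported is uncertain. Without pool 1, where 0 members were called, a call was not possible for this set, because pools 2 and 3 differed by only 0.06 on the log2 scale. The call was lost without pool 3 (limma, adjusted p = 0.073) and held without pool 2. Over 9 alternatives that keep this probe set and pools 1 and 2, its adjusted p ranged from 5.2e-08 (no filter on low signal) to 0.98 (no intensity trend), with 5 calls (limma).

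**Figure D3:**
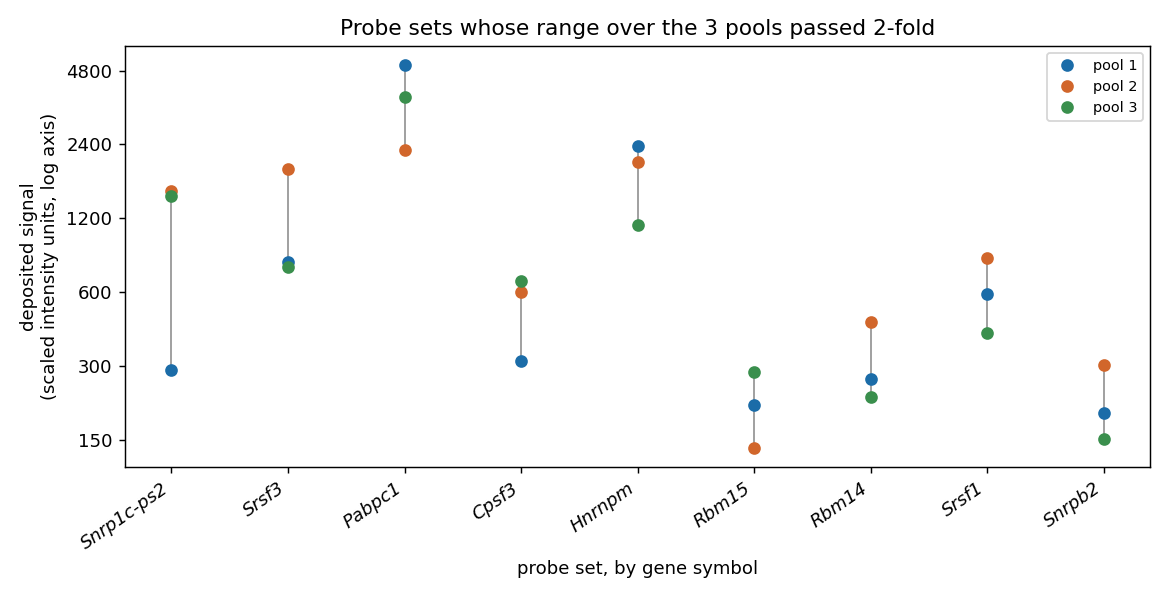
Deposited signal (log axis, scaled intensity units) of the 9 member probe sets whose range over the 3 pools passed 2-fold, ordered by range, with 1 point per pool and a grey line from lowest to highest. Pool 1 is lowest for Snrp1c-ps2 (288.5) and Cpsf3 (315.7) and highest for Pabpc1 and Hnrnpm, and pool 2 is highest for Srsf3, Srsf1, Rbm14, Snrpb2 and Snrp1c-ps2.

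Core spliceosome factors recognise the branch point and 3' splice site or form the catalytic particle, and 22 of their 23 probe sets (19 genes) were measured. Of all measured probe sets 13.2% passed 2-fold, and none of these 22 did. The median SD of the group was 0.289. None had an unadjusted p under 0.05 in the variability test (limma, against 5.34% of all). U2af2, the large subunit that binds the polypyrimidine tract, had 6924.9, 5784 and 6502. Its partner U2af1, which reads the AG of the 3' splice site, had 1469.8, 1212.7 and 1051.4. U2af1l4, a relative of U2af1, was the steadiest of the group at 869.6, 838.9 and 889.3.

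Proteins of the SF3A and SF3B complexes, which hold U2 at the branch point, did not share an order of pools. Sf3b1, the largest SF3B subunit, had 2036.2, 2032.5 and 1287.6 from one set, lowest in pool 3, and 656.5, 903.8 and 693.6 from another, highest in pool 2. Sf3b6, which contacts the branch point, had 1535, 2420.7 and 1781.3. Sf3b2 and Sf3b3 were highest in pool 2 as well, at 591.5, 771.8 and 609 and at 911.4, 980.4 and 742, while Sf3b5 was highest in pool 1 at 729.4, 661.8 and 450.4. In SF3A, Sf3a1 was lowest in pool 2 at 722.3, 416.1 and 786.1, the widest range of the core group at 1.89-fold (limma, adjusted p = 0.99). Sf3a3 took the opposite order at 867.2, 1062.5 and 675.2. Sf3a2 had 3579.4, 2591 and 2656.9 by an f-class set and 2313.4, 2066.7 and 3258.3 by an r-class set, so its sets placed the highest signal in different pools.

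Prpf8, Prpf6 and Prpf31, core factors whose human counterparts are retinitis pigmentosa genes, were present in every pool of the Rp1-/- retina. Prpf8, the central U5 protein at the catalytic core, had 2684.9, 1658 and 2847.2, lowest in pool 2 by up to 1.72-fold. Prpf6, which bridges the particles of the tri-snRNP, had 1752.1, 1300.5 and 1292.9. Prpf31, needed to join U4/U6 with U5, was among the steadiest at 784.3, 722.8 and 821.3. None passed the test (limma, adjusted p of 0.99 for Prpf8 and Prpf6 and 1 for Prpf31), and each pool lay well above its floor for all 3 genes. Among the other Prp factors, Prpf19, a ubiquitin ligase of the spliceosome, had 1335.6, 1402.2 and 1583.3, while its f-class set read 187, 148.4 and 52.1, the last under the floor. Prpf38b had 644.9, 506.5 and 351.3 and Prpf38a 379.9, 562 and 345.8. Prpf4b, a kinase, had 303.6, 421.7 and 363, and Prpf39, of the U1 particle, had 120.6, 210.4 and 168.

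Rbm proteins share RNA-recognition motifs and act at different steps of RNA processing; 12 of 14 probe sets (12 genes) were measured. Their median SD was 0.265. Rbm39, a coactivator and U2AF-related splicing factor, read 1581.9, 1434.5 and 1498 by one set and 1748, 1100.1 and 943.9 by another. The former was the steadiest Rbm set and the latter among the most variable, although both were highest in pool 1. Rbm42 had 1910, 1563.3 and 1312.1 and Rbm17 (SPF45), a splicing factor, 1289.5, 1489.8 and 1221.1. Rbm8a, of the exon junction complex, had 1096.8, 864.1 and 954.6, and Rbm4b 1016.7, 1108.4 and 731.7. Rbm18 was lowest in pool 1 at 839.5, with 1395.4 and 1265.9 in the others.

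A pair of Rbm genes passed 2-fold (16.7% of measured Rbm sets, against 13.2% of all), in opposite directions between pools 2 and 3. Rbm14, a paraspeckle protein, read 266.2, 455.3 and 225.1 by an f-class set. Rbm15, which recruits the m6A methylation machinery, read 207.4, 139.6 and 283, so pool 2 was highest for the former and lowest for the latter. Both ranges were 2.02- to 2.03-fold and neither passed the test (limma, adjusted p = 0.99 for both). Rbm25, a splicing regulator, was even at 270.3, 307.3 and 320.7, as was Rbm6 at 212.5, 170.3 and 223 within 1.31-fold. Rbm38, a p53 target that stabilises transcripts, had 263.2, 339.7 and 240.3.

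The tissue-restricted regulators, a group set by symbol, include proteins that set neuron-type splicing and also the ubiquitous Elavl1. Of their 14 probe sets (11 genes) 13 were measured. None passed 2-fold (13.2% of all measured did) and none was called (limma, against 0.216% of all). Elavl3 (HuC), a marker of neurons, had 508.1, 555.5 and 421.4, above the floor in all pools. Elavl2 (HuB) had 241.4, 220.4 and 275.6. Elavl4 (HuD) had 193.8 and 196.4 in pools 1 and 2 and 102.3, under the floor, in pool 3. These Hu proteins bind AU-rich elements in neurons, and their ubiquitous relative Elavl1 (HuR) had 1278.3, 1682.1 and 1297.4. Ganglion cell markers beside them had sums of 7064.4, 7911 and 7201.3, with all 6 above the floor and 3 of the 6 with the highest pool less than 25% above the lowest. Gap43 was highest in pool 2 at 1331.4, 2015.2 and 1427.5 by an s-class set, and Nefm in pool 1 at 433.2, 303.7 and 271.4. Amacrine markers had sums of 11141.6, 11414.2 and 12460.4 with 5 of 6 above it on all arrays (Gad2 on none).

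Ptbp2, the neuronal polypyrimidine tract-binding protein, had 882.2, 1071.8 and 1144.4 by its brighter set, and 101.2, 190.5 and 155.6 by an r-class set. Both were lowest in pool 1. Ptbp3 was lowest in pool 1 too, at 139.2, 191.9 and 167.1. Msi1, the Musashi protein of neural progenitors and glia that also acts on photoreceptor exons, had 440, 403.4 and 364.7, the steadiest of this group. Celf4, a neuronal regulator of excitability transcripts, had 1670.1, 1247.3 and 1830.3 by an f-class set. Celf2 had 1317, 1801.3 and 1335.4 by one set and 462, 357.5 and 315.9 by another, with the highest signal in different pools. Celf1, which binds GU-rich elements, had 478.4, 370.1 and 522.2. Khdrbs1 (Sam68), a signalling-regulated splicing factor, had 253.3, 183.6 and 278.6, lowest in pool 2 like Celf1 and Celf4.

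Poly(A) factors had 9 measured probe sets of 10 (8 genes). Of these, 2 passed 2-fold (22.2%, against 13.2% of all measured), in opposite directions between pools. Pabpc1, the main cytoplasmic poly(A)-binding protein that links tails to translation, had 5052.3, 2267.8 and 3746.6. Pool 2 was lowest and the range was 2.23-fold (limma, adjusted p = 0.65; unadjusted p = 0.011). Pabpn1, the nuclear protein that controls tail length, was highest in pool 1 as well at 4104.6, with 2485.2 and 2487.7 in the others (limma, adjusted p = 0.99). Pabpc4, another cytoplasmic form, was lowest in pool 1 at 423.3, with 583.4 and 567.2 in the others. Pabpc2 was even at 291.8, 305.1 and 321.4.

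The cleavage and polyadenylation specificity factor recognises the AAUAAA signal and cuts the transcript. Cpsf3, its endonuclease, had 315.7, 598.8 and 668.2, lowest in pool 1, 2.12-fold under pool 3 (limma, adjusted p = 0.93; unadjusted p = 0.049). Cpsf2, the inactive relative of Cpsf3, had 498.8, 538.4 and 285.1 by one set and 253.1, 237 and 341.5 by another. Pool 3 was lowest by the former and highest by the latter. Cpsf4 was the steadiest of the group at 410.4, 383.4 and 394.3, and Cpsf7, of the related cleavage factor I, had 1143.8, 1208.4 and 1477.1.

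**Figure D4:**
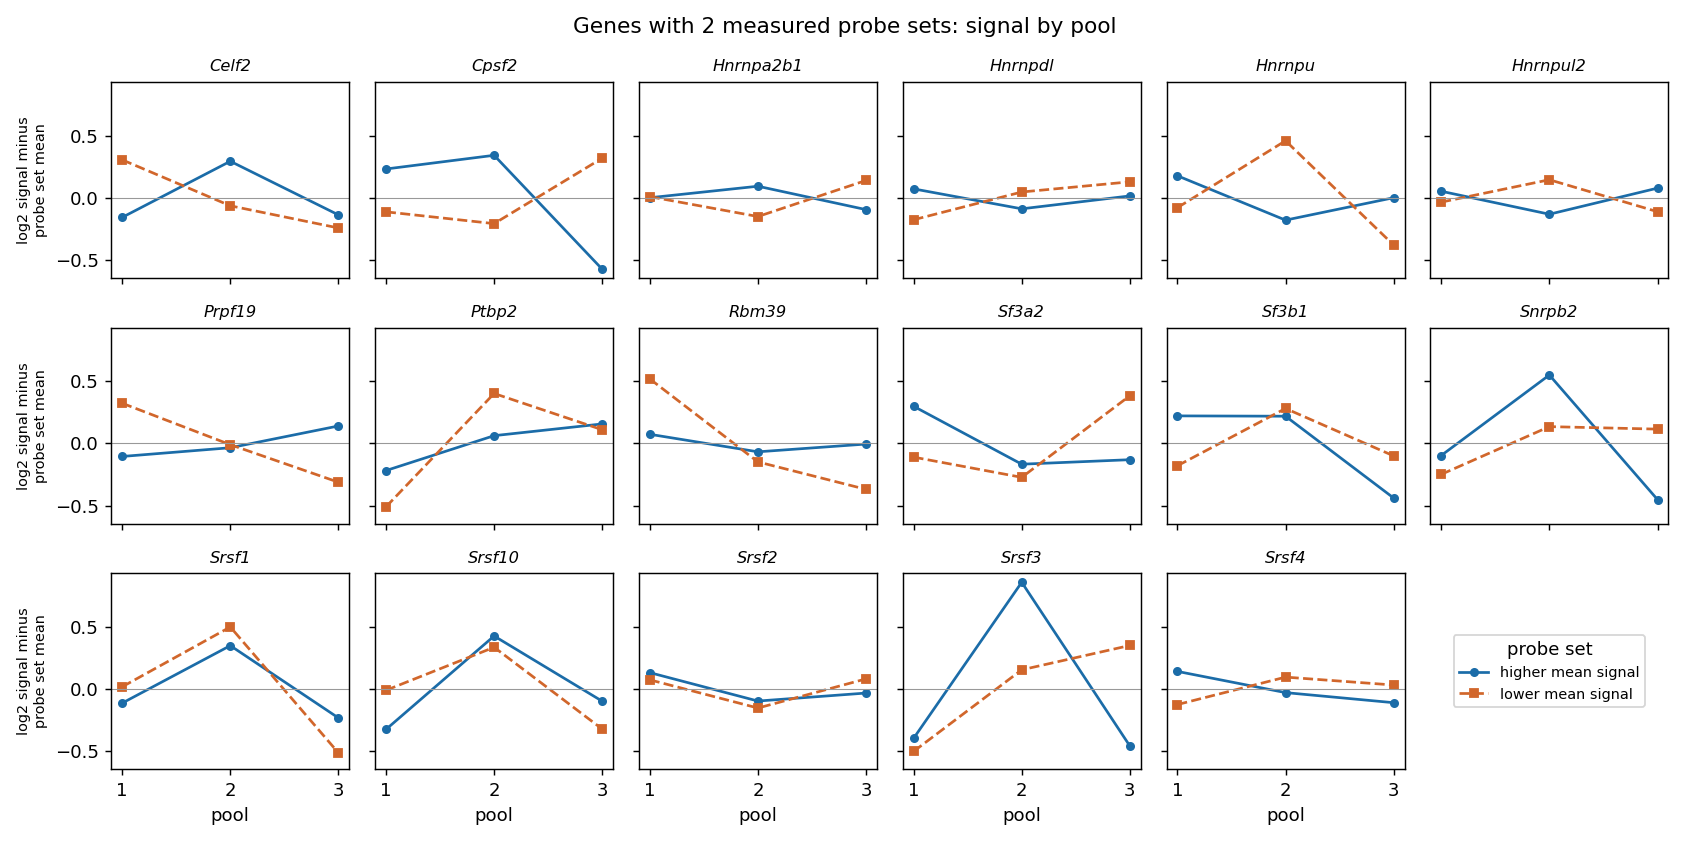
Log2 signal minus the mean of the probe set (vertical axis) in pools 1, 2 and 3 (horizontal axis) for the 17 member genes with 2 measured probe sets, the brighter set as blue circles and the dimmer as orange squares. The sets run together for Srsf1 and apart for genes such as Cpsf2, Hnrnpu and Prpf19. The lines join values of 1 probe set and imply no order of the pools.

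Where a gene had more than 1 measured probe set, the sets seldom ranked the pools alike. Of 17 such member genes, each with 2 measured sets, the sets shared the pool with the highest signal for 4 (23.5%): Srsf1, Srsf10, Snrpb2 and Rbm39. Over all 1095 genes with several measured sets, some with more than 2, the share was 34.5%. The full order of pools was the same for 1 member gene, Srsf1 (5.88%, against 18.4% over all genes). Both Srsf1 sets were highest in pool 2, at 827.6 and 934.1, and lowest in pool 3, at 409.9 and 624. For Srsf3, Sf3a2 and Cpsf2, by contrast, the pool order depended on the probe set.

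Genes of the same pathway outside the named families had a similar spread. Of 68 further genes of splicing, RNA processing and RNA binding, 55 had a named probe set, 53 were measured and 51 were above the floor on all arrays. Each gene was taken by its brightest probe set only, whereas the member counts above use every probe set. None passed the variability test (limma, against 0.216% of all). Their median SD was 0.242, beside 0.247 for members with 1 probe set per gene, also the brightest. On the log2 scale the list's medians were -0.03 (pool 1 less pool 2), 0.11 (pool 1 less pool 3) and -0.02 (pool 2 less pool 3). The range passed 2-fold for 4 (7.55%, against 13.2% of all measured): Srpk1, Sfpq, Mbnl1 and Usp39. Srpk1, a kinase that phosphorylates SR proteins, had 188.6, 366.6 and 525.4 (limma, adjusted p = 0.83). Sfpq, a paraspeckle protein needed in neurons, had 2484.4, 1622.7 and 1020.5 by an s-class set (limma, adjusted p = 0.65), the same order of pools as Hnrnpm. Mbnl1, an opponent of the Celf proteins, had 741.8, 1255.8 and 618.6 (limma, adjusted p = 0.89). Usp39 had 96.4, 193.2 and 216.6 (limma, adjusted p = 0.99), the first under the floor, so its range rests on the floor value. Ybx1, an abundant mRNA-binding protein, was even at 18969.9, 19284.8 and 21268.9.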

How the data were processed

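Gene expression was measured on 3 arrays. The table deposited by the authors gives linear intensities, 1 for each probe set on each array. Its equal trimmed means (2% removed at each end) show scaling between arrays, so no further scaling was applied. The software is not given in the sources used here. A blank row (1) and 66 control probe sets were left out of the gene results. The platform annotation gave 1 symbol to 10833 of 12422 probe sets, several to 396 and none to 1193. All 109 member symbols matched the RefSeq gene table (GRCm38.p6) by gene identifier.

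The floor of an array was the 90th percentile of 19 control probe sets without a target in mouse RNA. Signals under it were set to it before log2. The variability test fitted a mean alone to each probe set (limma 3.58.1, R 4.3.3) and set its residual variance against a robust F distribution with an intensity trend. It took the upper-tail p and Benjamini-Hochberg adjustment over all 8327 measured probe sets at 0.05. On simulated data, with noise alike for probe sets of like signal, it called few 2-fold changes and most of 4-fold or more. No size between 2-fold and 4-fold was simulated. Noise on the arrays need not be alike for probe sets of like signal, so these rates need not hold for them. Of 7 measured probe sets over 4-fold lower in pool 1 than in both other pools, the test called 4 (limma). The lack of a call thus does not show that pools did not differ. Alternatives changed the floor, the scaling, the log transform, the filter, the fit, the probe sets kept or the pools included. Signals of different probe sets were not compared as amounts. Each gene of the marker lists and of the further list was taken by its probe set with the highest mean signal. The number of arrays limits precision. Other steps ran in Python 3.11.15 (numpy 2.4.6, pandas 2.3.3) with plots from matplotlib 3.10.9.

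The members, role groups and lists were chosen with earlier results of these data known. Genes were named by rule: per role group the 6 with the highest mean signal, the 4 most and 2 least variable probe sets, members past 2-fold or called, genes with several measured sets, and members under the floor on all arrays. Those outside it (Hnrnpl, Hnrnpab, Rbm6, Rbm38, Prpf4b, Prpf38a, U2af1, Ptbp3, Sf3b2, Sf3b3, Sf3b5, Sf3a3 and the genes of the further list) were chosen after their values were seen.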

Additional observations from a re-analysis of the deposited data

How the results depend on the processing

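No paired analysis was possible because all arrays belong to 1 group. Members above the floor on all arrays stayed within 1.5 times of 96 under every alternative run. The count of members called by the variability test (1) fell to 0 with log2(signal + 50), with an ordinary fit, with no intensity trend and without probe sets of the f, r, i, s and g classes, where Snrp1c-ps2 is left out by construction. Leaving out 1 pool gave 0 to 1 calls and a median SD of 0.1815 to 0.2111, against 0.255 in all pools; an SD of 2 values is lower by construction. The median SD of members was 0.2327 with log2(signal + 50), against 0.2468 for all probe sets tested. With no filter it was 0.2373 against 0.1974, so members were then the more variable. With the floor at the median control it was 0.2563 against 0.3178. Members past 2-fold, 3 between pools 1 and 2, became 5 with the floor at the median control and 1 without lettered classes. Between pools 1 and 3 the 3 became 5 with the floor at the median control, and between pools 2 and 3 the 5 became 1 with log2(signal + 50) and 2 without lettered classes. Among the single probe sets past 2-fold, only Snrp1c-ps2 had a call to lose. It lost the call in 4 of the 9 alternatives that keep it and pools 1 and 2, and no other set gained one. None of the 85 values for the probe sets past 2-fold changed direction, but apart from the changed scaling the alternatives could not change it for these probe sets. Over all probe sets the test called 18, against 0 with no intensity trend, 6 with an ordinary fit, 11 with log2(signal + 50), 52 with no filter, 40 without pool 1, 10 without pool 2 and 4 without pool 3. The cause of these changes was not tested. Signal near background limits 3 measured members that were under the floor in 1 pool (Hnrnpu, Prpf19 and Elavl4).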

Other observations

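The platform annotation gave several symbols, at least 1 of a member family, to 10 further probe sets, which were not named. All 10 were above the floor on all arrays and none passed the variability test (limma, adjusted p from 0.99 to 1).

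The low signal of Snrp1c-ps2 in pool 1 was shared by few probe sets. Of 8327 measured probe sets, 7 were over 4-fold lower in pool 1 than in both other pools, and 4 of these passed the variability test (limma): Snrp1c-ps2, Xist, Tmem129 and 1 probe set without a symbol. The choice of these 7 followed a look at their values. Xist had 69.5, under the floor, 1384.4 and 1543.7 in pools 1, 2 and 3 (limma, adjusted p = 0.00063). Whether the pools differed in sex, and its part in the low Snrp1c-ps2 signal of pool 1, was not tested. Tmem129 had 103.8, 735.1 and 862.3 by an r-class set (limma, adjusted p = 0.012), with pool 1 close to its floor of 100.5. The others that did not pass were Gm7775 (101.2 in pool 1, close to the floor), Serpina3n (162 in pool 1) and Nr2c2ap (76.1 in pool 1, under the floor). For signals at or near the floor, the size of the difference depends on where the floor is set.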
